A study of Mus musculus with 12 samples.

Results

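Claudins and other tight junction components were followed in 4T1 cells, an established mouse mammary carcinoma line, after CRISPR targeting of the ETS transcription factor ETV4. The members were the 9 genes Cldn1, Cldn3, Cldn4, Cldn7, Cldn12, Ocln, Marveld2, F11r and Tjp1, found by symbol among the 31017 rows of a table of read counts. Of these, 8 passed the filter on low counts together with 12079 genes in all, and Cldn1 did not. The members were chosen by their family and by measured values, namely the low Cldn7 in the knockout, with the other knockout differences known. For this reason every difference between knockout and control below is a description of the members, with no p-value and no call for a single member; their count of calls stands once, beside that of all genes. The responses to FGF were not used for the choice and were tested, although they come from the same libraries.

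All cells were grown as 3D cultures in collagen I gels with 2% FBS and had been nucleofected with Cas9, and 4 groups of 3 libraries were compared. The control group received a control guide and no FGF, and the ETV4 knockout group received a guide against ETV4 and no FGF. The remaining groups were control and ETV4 knockout cells given 25 ng/ml of FGF10 plus 40 ng/ml of FGF2 for 4 days in 2% FBS, after a first day with both ligands in 10% FBS. For the groups without FGF the culture time is not recorded, and neither is a first day in 10% FBS. If culture time or first-day serum differed, their part cannot be told apart from that of FGF. Collagen was used at either 1.2 mg/ml or 2.4 mg/ml, with no record of the concentration for each library. The names of all 6 knockout libraries carry the tag C39, which the labels do not explain. If it marks a single clone, that clone and the ETV4 genotype cannot be told apart. The labels number the replicates without tying them to separate cultures, and the spread behind each p-value may therefore be technical.

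Tight junctions seal the space between epithelial cells at the apical end of their side walls. Claudins are 4-pass membrane proteins whose strands set which ions and solutes pass; occludin, tricellulin (Marveld2) and JAM-A (F11r) are further membrane proteins of the junction, and ZO-1 (Tjp1) is a cytoplasmic scaffold that ties claudins to actin. Claudin-7 is also found along the side walls outside the tight junction, where it binds the adhesion protein EpCAM. ETV4 belongs to the PEA3 group of ETS factors, which bind DNA around a GGAA core.

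The starts of 3 claudin genes are shown because these genes had the largest knockout differences among the member claudins and differ in their ETS letters. They are the 250 bases before each RefSeq start in GRCm38.p6, written along the gene's strand, with GGAA or its reverse complement TTCC in capitals.
Cldn7, chr11:69964529-69964778, plus strand: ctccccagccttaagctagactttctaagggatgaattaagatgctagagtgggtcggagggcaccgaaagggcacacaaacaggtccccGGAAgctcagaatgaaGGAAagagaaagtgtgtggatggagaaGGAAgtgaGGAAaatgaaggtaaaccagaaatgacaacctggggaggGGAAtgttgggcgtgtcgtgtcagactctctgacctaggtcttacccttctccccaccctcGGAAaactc
Cldn4, chr5:134946935-134947184, minus strand: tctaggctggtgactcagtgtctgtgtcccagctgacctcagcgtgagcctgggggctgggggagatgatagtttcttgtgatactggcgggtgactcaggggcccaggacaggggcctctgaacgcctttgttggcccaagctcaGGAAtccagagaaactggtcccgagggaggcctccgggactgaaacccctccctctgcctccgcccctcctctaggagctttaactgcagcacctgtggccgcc
Cldn3, chr5:134985964-134986213, plus strand: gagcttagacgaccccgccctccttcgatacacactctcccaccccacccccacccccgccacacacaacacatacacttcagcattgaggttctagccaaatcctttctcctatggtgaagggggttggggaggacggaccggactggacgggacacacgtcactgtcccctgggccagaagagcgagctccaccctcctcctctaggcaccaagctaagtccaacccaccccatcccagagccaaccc

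The Cldn7 window held 6 matches to the core on either strand, that of Cldn4 held 1 and that of Cldn3 held 0. Cldn12 had 2, 7 and 8 matches in its 3 overlapping windows, and the second window of Cldn7 had 5. The core alone was common, since 93.4% of the 32851 windows of this length in the RefSeq table held it, with a median of 3 matches. The longer form CGGAAG, which contains the core, was in 13.6% of windows. Among the members it occurred before both RefSeq starts of Cldn7, at 161 bases before the first and 66 before the second, in all 3 windows of Cldn12 and at 99 bases in that of Tjp1. Around the second Cldn7 start the match lay on the other strand, at chr11:69965345-69965370 on the plus strand, with its reverse complement in capitals.
Cldn7, second start: ggggccaagaCTTCCGgttcaggtga
No window of Cldn1, Cldn3, Cldn4, Ocln, Marveld2 or F11r held CGGAAG. The E-box CACCTG, searched on both strands, was in 17.2% of all windows; it occurred in those of Cldn4 (14 bases before the start) and F11r (122), before the second start of Cldn7 (97 and 57) and in 1 Ocln window (213 and 68). These are matches of letters, and binding of a factor was not measured.

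Library totals ran from 18229429 to 23193244 counts. Levels are given as CPM, reads scaled to a common library total, after TMM scaling, and log2 fold changes with their standard error (SE) come from edgeR's quasi-likelihood fit to all 12 libraries, with calls made at an adjusted p under 0.05 (Benjamini-Hochberg). Etv4 itself was at 162 to 168 CPM in control, at 116, 159 and 116 in ETV4 knockout, at 154 to 173 in control with FGF and at 113 to 120 in knockout with FGF; its mRNA level does not show whether ETV4 protein is made. ETV4 knockout replicate 2 stood apart from the other libraries: its counts differed from those of replicates 1 and 3 with a chi-square per degree of freedom of 74.3 and 73.1, against 3.34 to 11.6 for the other pairs within groups. Counts of calls between knockout and control, and log2 values of single members that it moves by over 1.5 times, are given with and without it. Epithelial markers, with Krt5 at 0 in every library, summed to 4720 to 4890 CPM in control, 4410 to 6330 in ETV4 knockout (highest in replicate 2), 4800 to 5390 in control with FGF and 4000 to 4120 in knockout with FGF. Endothelial markers (4 of 8 at 0, the endothelial claudin Cldn5 among them) summed to 0.247 to 1.11 CPM. Fibroblast markers (4 of 8 at 0) summed to 9.76 to 11.5 CPM in control and 8.81 to 14.1 in ETV4 knockout, and with FGF to 8.03 to 11.3 and 12.3 to 16. Leukocyte markers (2 of 8 at 0) summed to 5.78 to 9.4 CPM and 9.25 to 11.6, and with FGF to 6.77 to 7.86 and 9.07 to 10.0. With FGF the epithelial sum was thus lower in the knockout, and the fibroblast and leukocyte sums higher, without overlap. The fibroblast sum was mostly Pdgfra, with means of 9.89 CPM in control and 14.1 in knockout with FGF. The leukocyte sum was mostly Cd68 (6.64 and 8.88), and Csf1r went the other way (18 and 8 reads). Krt19 went against the epithelial sum and was higher in the knockout with FGF (log2 0.91, SE 0.17). Of the detected stromal genes, Pdgfra was called higher in the knockout with FGF (log2 0.51, SE 0.18) and Cd68 without FGF (0.47, SE 0.17). Of the 12 fits that each leave out 1 library, 4 lost the Pdgfra call and 9 the Cd68 call. The part of these markers in the results below was not tested. In bulk RNA, fewer cells that express a gene and less RNA per cell cannot be told apart.

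Cldn7 (chr11:69964779-69967885) was nearly lost in the knockout. In the 3 control libraries it stood at 179, 177.5 and 185 CPM, and in the 3 ETV4 knockout libraries at 3.28, 4.62 and 3.69. With FGF it stood at 188, 233 and 206 CPM in control and at 3.18, 3.17 and 2.66 in knockout. The groups were far apart in both settings, yet Cldn7 was detected in every knockout library, with 54 to 79 reads. The log2 difference was -5.55 (SE 0.13) without FGF, or 2.13% of the control level, and -6.12 (SE 0.13) with FGF, or 1.44%. Of the 12079 genes tested, 85 had a larger absolute difference without FGF and 67 with FGF.

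Cldn4 (chr5:134945119-134946934), which encodes a claudin found beside claudin-7 in many simple epithelia, went the opposite way. Control libraries held 234, 232.5 and 242 CPM and ETV4 knockout libraries 379.6, 464 and 365. In the presence of FGF, control libraries held 338, 369.5 and 345 CPM and knockout libraries 436, 456 and 433. Every knockout library lay above every control library of the same treatment. The log2 difference was 0.77 (SE 0.085) without FGF and 0.33 (SE 0.084) with FGF. Without ETV4 knockout replicate 2, the highest library of its group, the first was 0.658 (SE 0.050).

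Cldn3 (chr5:134986214-134987472), a sealing claudin encoded 39.3 kb from Cldn4, was lower in the knockout. Its levels were 57.4, 52.3 and 54.3 CPM in control and 31.0, 45.7 and 33.8 in ETV4 knockout. With FGF they were 56.2, 60.0 and 57.2 CPM in control and 36.8, 31.6 and 31.9 in knockout. The groups did not overlap in either setting, and ETV4 knockout replicate 2 was nearest to control. Log2 differences were -0.57 (SE 0.12) without FGF and -0.79 (SE 0.12) with it; the first was -0.752 (SE 0.077) without ETV4 knockout replicate 2. Cldn3 and Cldn4, although neighbours, thus differed in opposite directions.

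Cldn12 (chr5:5489537-5514958), a claudin that lacks the usual PDZ-binding end, was at 53.9, 54.5 and 55.8 CPM in control and at 43.5, 36.9 and 48.3 in ETV4 knockout. With FGF it was at 57.1, 56.9 and 58.6 CPM in control and at 55.1, 54.6 and 50.6 in knockout. Neither setting showed overlap, but the distance was small with FGF: the log2 difference was -0.35 (SE 0.09) without FGF and -0.11 (SE 0.089) with it. The first was -0.253 (SE 0.066) without ETV4 knockout replicate 2, the lowest library of its group. Cldn1 (chr16:26356642-26371841), a claudin of stratified epithelia and many glands, was barely detected, with 3 reads in all in control, 2 in ETV4 knockout, 6 in control with FGF and 3 in knockout with FGF. At 0.152 CPM or less in every library it allowed no comparison.

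Occludin mRNA was somewhat lower in the knockout. Ocln (chr13:100496507-100552718) was at 34.4, 35.2 and 29.98 CPM in control and at 23.9, 15.5 and 24.4 in ETV4 knockout, with the lowest value in replicate 2. With FGF the levels were 32.5, 29.2 and 30.5 CPM in control and 25.2, 23.7 and 26.2 in knockout, again without overlap. The log2 difference was -0.64 (SE 0.14) without FGF and -0.30 (SE 0.14) with FGF. Leaving out ETV4 knockout replicate 2 gave -0.458 (SE 0.086) without FGF and -0.296 (SE 0.077) with FGF.

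Tricellulin, which closes the corners where 3 cells meet, showed no such difference. Marveld2 (chr13:100595957-100616971), encoded 43.2 kb from Ocln, ranged from 27.5 to 29.2 CPM in control, from 24.8 to 29.7 in ETV4 knockout, from 26.9 to 30.6 in control with FGF and from 27.8 to 32.3 in knockout with FGF. These ranges overlapped, and the log2 differences were -0.06 (SE 0.092) and 0.06 (SE 0.092). The first was 0.004 (SE 0.086) without ETV4 knockout replicate 2. F11r (chr1:171437535-171464603), the JAM-A gene, ranged from 105 to 113 CPM in control, from 103 to 117 in ETV4 knockout, from 110 to 115 in control with FGF and from 112 to 121 in knockout with FGF. Its groups overlapped as well, with log2 differences of 0.002 (SE 0.071) and 0.03 (SE 0.071). Leaving out ETV4 knockout replicate 2 gave -0.053 (SE 0.058) for the first.

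For the scaffold ZO-1 the value turned on ETV4 knockout replicate 2. Tjp1 (chr7:65296165-65527781) was at 123, 124 and 118 CPM in control and at 111, 59.5 and 112 in ETV4 knockout. With FGF it was at 127, 101 and 118 CPM in control and at 112, 103 and 107 in knockout, and the groups overlapped. The log2 difference was -0.37 (SE 0.18) without FGF and -0.10 (SE 0.18) with FGF. The first came to -0.128 (SE 0.071) without ETV4 knockout replicate 2.

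**Figure D1:**
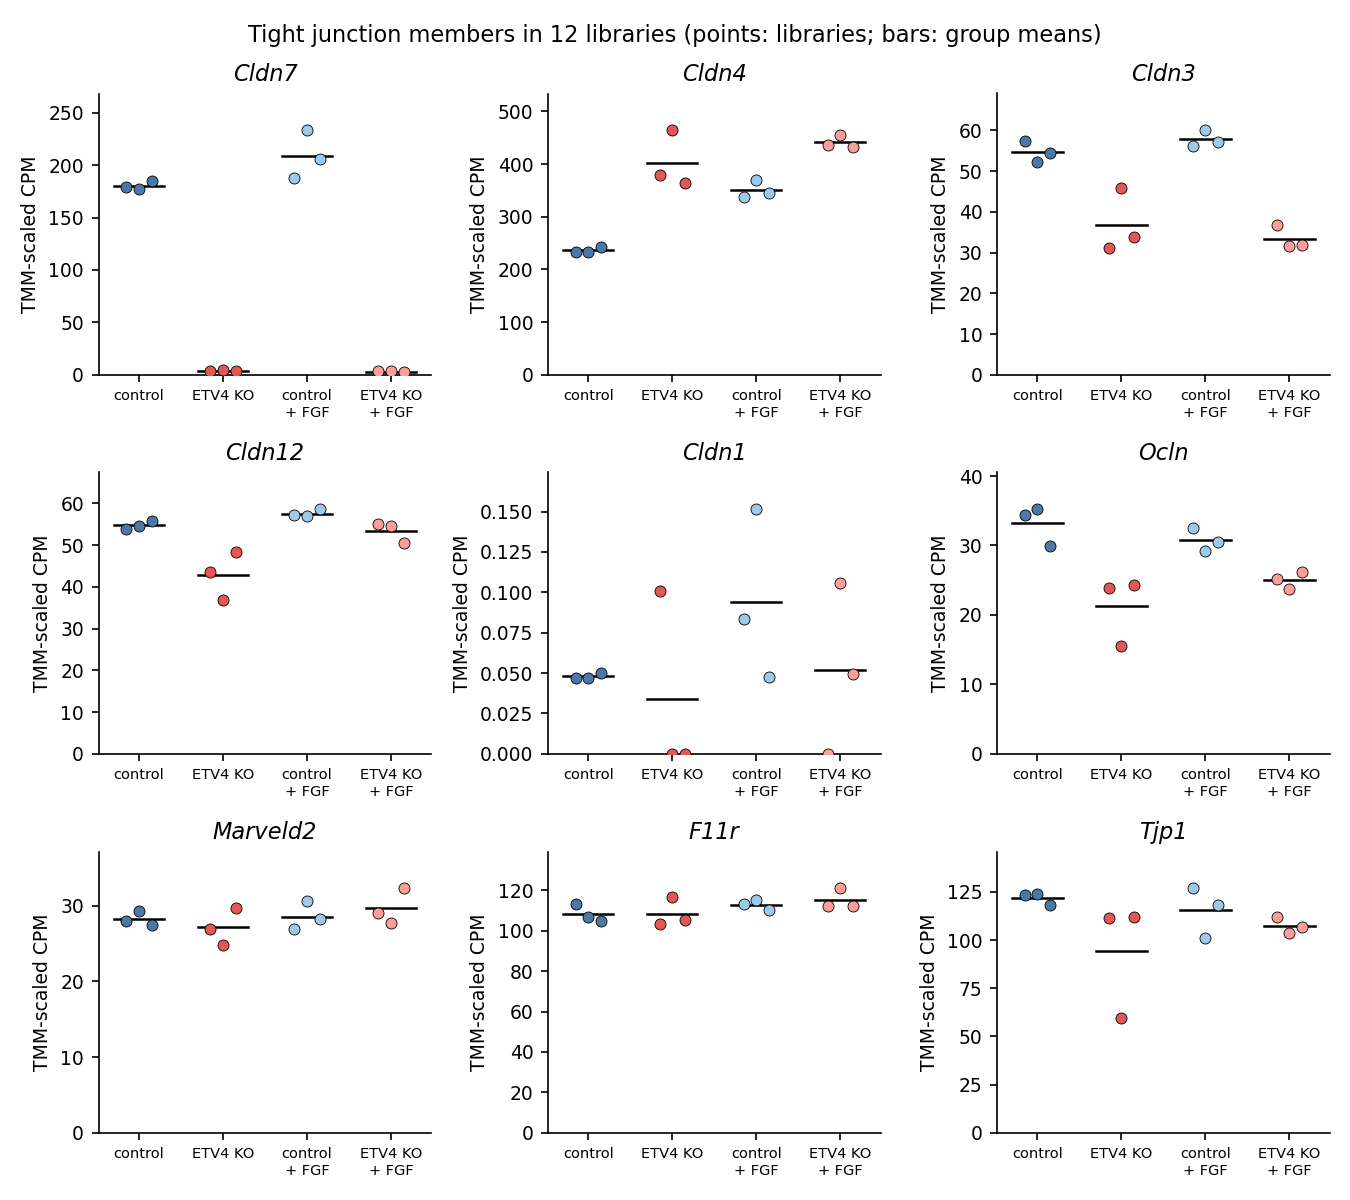
TMM-scaled CPM (y axis, from 0, a scale of its own for each gene) of the 9 members in the 4 groups (x axis); points are libraries and bars are means of 3. Cldn7 falls from 179, 177.5 and 185 CPM in control to 3.28, 4.62 and 3.69 in ETV4 knockout, Cldn4 is higher in knockout, and Cldn1 stays at or below 0.152 CPM.

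Counted together without FGF, 1 member was called higher and 4 were called lower of 8 tested, where 22.5% of all genes tested were called higher and 23.3% lower. With FGF 1 was higher and 2 were lower, against 18% and 22.2% of all genes. Because the choice of members rests on these comparisons, nothing is read from those counts. The members' median log2 difference was -0.36 without FGF and -0.11 with FGF, and the median over all genes was -0.01 in both. Without ETV4 knockout replicate 2 the counts were 1 higher and 4 lower without FGF and 1 higher and 3 lower with FGF, against 26.3% and 28.2%, and 28.1% and 30.5%, of 12235 genes. The median without FGF was then -0.191.

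Claudin transcripts were then compared per length, as CPM per kb of exons, the scale on which genes can be set beside each other. In control the order of the members was Cldn4 at 130 ± 2.71 (SD, n = 3 here and below), Cldn7 at 92.7 ± 2.04, Cldn3 at 43.4 ± 2.07, F11r at 40.7 ± 1.66, Tjp1 at 15.6 ± 0.407, Cldn12 at 13.0 ± 0.23, Marveld2 at 8.35 ± 0.264, Ocln at 7.86 ± 0.667 and Cldn1 at 0.00992 ± 0.000321. Libraries of Cldn3 and F11r overlapped in this order, as did those of Marveld2 and Ocln, and the other neighbours did not. In ETV4 knockout Cldn4 led at 222 ± 29.6 CPM per kb and Cldn7 stood at 1.98 ± 0.351, below Ocln at 5.04 ± 1.19. With FGF Cldn4 was at 193 ± 9.05 in control and 243 ± 6.94 in knockout, and Cldn7 at 107 ± 11.8 and 1.54 ± 0.152.

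In the claudin pool the shares of Cldn4 and Cldn7 stood apart between genotypes, with and without FGF. Of the 29 claudin and claudin-domain genes listed, 14 had no read in any library and 8 passed the filter. Their summed level per length was 332 ± 5.47 CPM per kb in control, 301 ± 30.4 in ETV4 knockout, 414 ± 20.9 in control with FGF and 329 ± 5.31 in knockout with FGF. Without FGF the knockout libraries gave 288, 336 and 279 CPM per kb and the control libraries 335, 326 and 336, so that the groups overlapped through ETV4 knockout replicate 2. With FGF they did not overlap, at 397 to 438 in control and 325 to 335 in knockout. Cldn4 and Cldn7 summed to 223 ± 4.75 CPM per kb in control and 224 ± 29.9 in ETV4 knockout, and to 300 ± 20.8 and 245 ± 7.03 with FGF. Without FGF this sum ran from 219 to 228 in control and from 203 to 258 in ETV4 knockout, highest in replicate 2. ETV4 knockout replicates 1 and 3, with Cldn4 at 209 and 201 and Cldn7 at 1.68 and 1.89, lay below every control library. The share of Cldn7 in the pool was 27.9% ± 0.396 in control and 0.657% ± 0.0629 in ETV4 knockout, and that of Cldn4 was 39.1% ± 0.561 and 73.6% ± 2.28. With FGF the Cldn7 share was 25.8% ± 1.56 and 0.468% ± 0.0423, and the Cldn4 share 46.6% ± 0.277 and 73.9% ± 0.911. Cldn4 exceeded Cldn7 1.40- to 1.41-fold per length in control, 106- to 124-fold in ETV4 knockout, 1.70- to 1.93-fold in control with FGF and 147- to 174-fold in knockout with FGF. These shares use the values that chose the members and are descriptions.

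**Figure D2:**
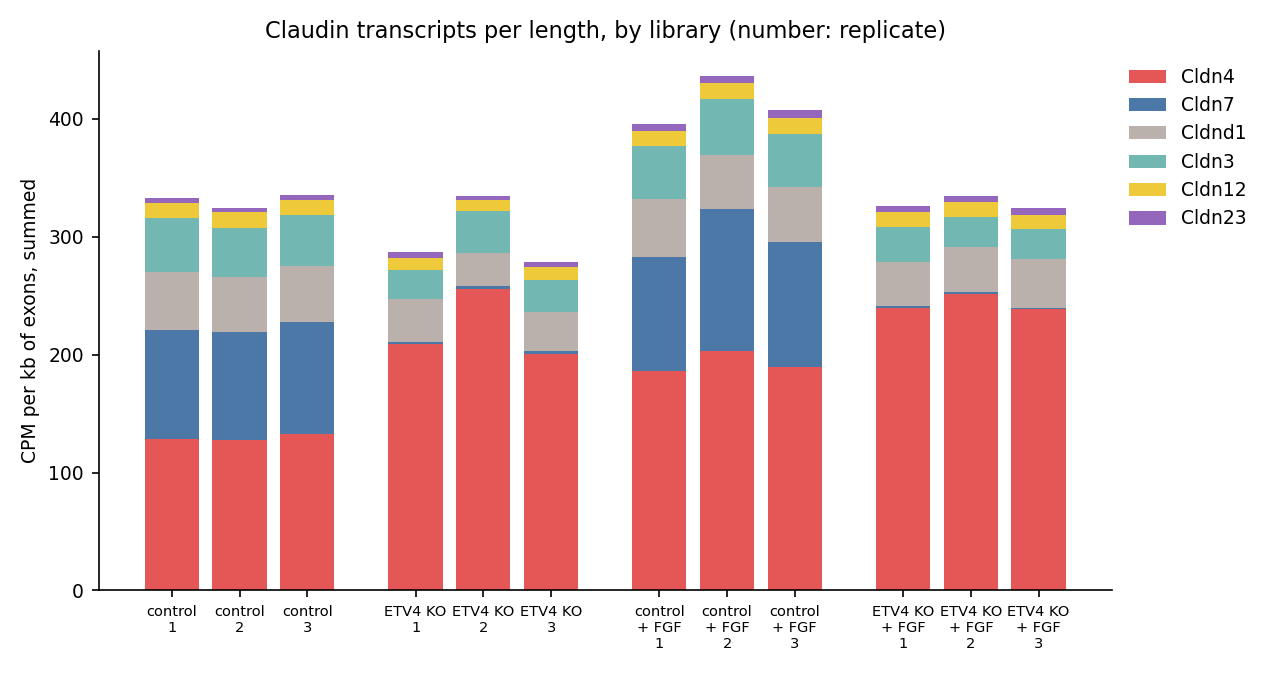
Summed CPM per kb of exons (y axis) of the 6 claudin and claudin-domain genes with appreciable levels, stacked for each of the 12 libraries (x axis, by group and replicate). Control bars hold Cldn4 and Cldn7 segments of 130 and 92.7 on average, whereas knockout bars hold Cldn4 at 222 without FGF and 243 with it and almost no Cldn7.

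Beyond the members, 54 other claudin and tight junction genes were in the table and 28 were tested. This list and those of other contacts below were chosen with earlier results of these data known, and their genes are named by adjusted p. The adjusted p-values printed for their knockout differences are therefore descriptions. Without FGF 8 of the 28 were called higher in the knockout and 11 lower (median log2 -0.22), beside 22.5% and 23.3% of all genes. With FGF 5 were higher and 6 lower (median -0.07), beside 18% and 22.2% of all genes. Without ETV4 knockout replicate 2 these counts were 8 and 12, and 7 and 9, beside 26.3% and 28.2%, and 28.1% and 30.5%, of all genes. Crb3, a polarity protein of the apical membrane, rose by log2 1.23 (SE 0.092, adjusted p = 3.89e-07) without FGF and by 1.18 (SE 0.091, adjusted p = 4.97e-07) with FGF. Magi2, a scaffold of junctions, rose by 1.68 (SE 0.185) and 1.99 (SE 0.178). The scaffold ZO-3, encoded by Tjp3, was at 2.50 to 3.24 CPM in control and at 0.101 to 0.42 in ETV4 knockout (log2 -3.25, SE 0.39, adjusted p = 2.69e-05), and it fell by 4.39 (SE 0.47) with FGF. Amot, an angiomotin that binds polarity and Hippo pathway proteins, fell by 1.72 (SE 0.22) without FGF and was at -1.148 (SE 0.21) with FGF. Its relative Amotl2 fell by 0.69 (SE 0.11) with FGF and was at -0.705 (SE 0.108) without FGF.

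Among the other claudins, Cldnd1, which encodes a claudin-domain protein, fell by 0.55 (SE 0.091) without FGF and by 0.28 (SE 0.091, adjusted p = 0.0261) with FGF; the second call was lost without any 1 of the control with FGF libraries or without replicate 1 or 2 of the knockout with FGF. Cldn15, a pore-forming claudin of the gut, fell by 1.61 (SE 0.45, adjusted p = 0.011) without FGF from a level of 0.517 to 0.747 CPM in control. It had 37 reads in control and 11 in ETV4 knockout. With FGF it had 26 and 14 reads and was not called (log2 -0.786, SE 0.458, edgeR adjusted p = 0.193). Cldn2, the pore-forming claudin of leaky epithelia, was too low to test and was named after its reads were seen. It had 14 reads in control and 0 in ETV4 knockout, at least 4.32-fold lower against a floor of 3 reads over the group. With FGF it had 19 and 0, at least 5.93-fold lower. The share of all genes with such counts is not given here. The floor covers counting error only.

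**Figure D3:**
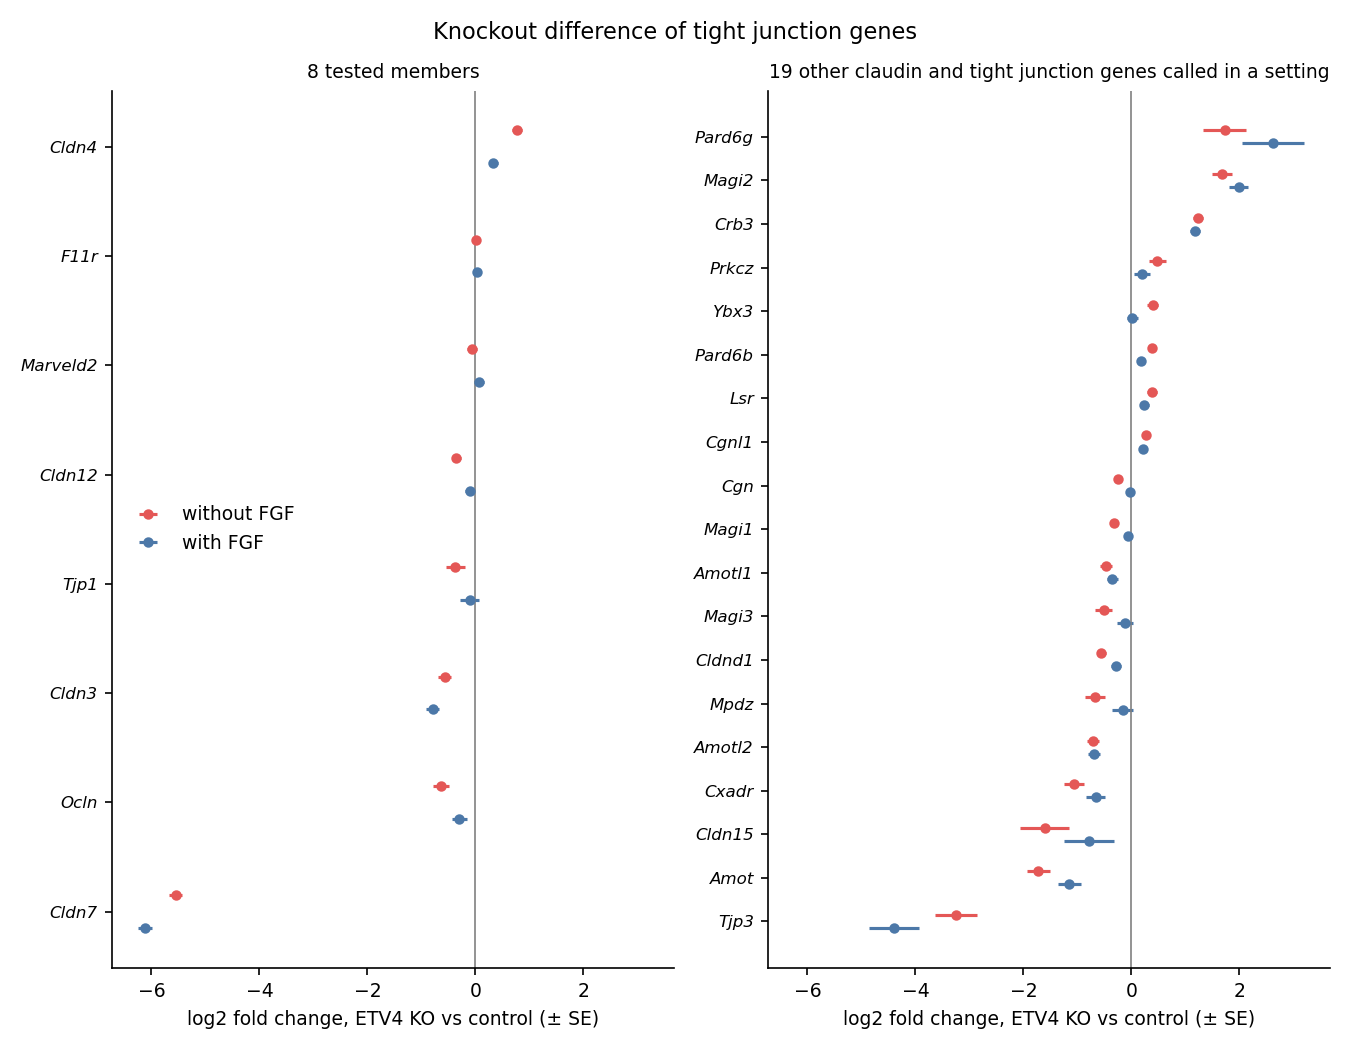
Log2 fold change of ETV4 knockout against control with its SE (x axis) for the 8 tested members (left) and the 19 other claudin and tight junction genes called in at least 1 setting (right), without FGF in red and with FGF in blue. Cldn7 stands at -5.55 and -6.12, the next lowest point is Tjp3 in the other list, and Crb3, Magi2 and Cldn4 lie above 0.

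Other cell contacts were covered by lists of genes, whose counts stand beside the same shares of all genes: 22.5% higher and 23.3% lower without FGF, and 18% and 22.2% with FGF. For the counts without ETV4 knockout replicate 2 the shares were 26.3% and 28.2%, and 28.1% and 30.5%. Of 15 adherens junction genes, 2 were higher and 9 lower without FGF (median log2 -0.37) and 3 were higher and 7 lower with FGF (median -0.26); without ETV4 knockout replicate 2 the counts were 3 and 9 in both settings. Nectin3, a nectin adhesion receptor, fell by 0.96 (SE 0.10) and 0.83 (SE 0.10), and Ctnna1, alpha-catenin, rose by 0.38 (SE 0.057) and 0.46 (SE 0.057). Nectin1 rose by 0.45 (SE 0.066) and P-cadherin, Cdh3, fell by 4.06 (SE 0.66) without FGF, from 0.598 to 0.752 CPM in control. With FGF Nectin1 was at 0.356 (SE 0.066) and Cdh3 at -2.604 (SE 0.486). Plakoglobin, Jup, fell by 0.46 (SE 0.077) and Lima1, an actin-binding protein that links to catenins, by 0.42 (SE 0.072) with FGF. Without FGF Jup was at -0.325 (SE 0.077) and Lima1 at -0.366 (SE 0.072). Of 11 desmosome genes, 1 was higher and 5 lower without FGF and 2 were higher and 4 lower with FGF, and without that library 2 and 6, and 3 and 4. Desmocollin-2, Dsc2, was at 8.27 to 10.01 CPM in control and 0.599 to 1.03 in ETV4 knockout and fell by 3.55 (SE 0.20) and, with FGF, by 3.28 (SE 0.20). Evpl, envoplakin, fell by 2.96 (SE 0.19) and 3.10 (SE 0.19), while Pkp3, plakophilin-3, rose by 0.73 (SE 0.094) and 0.71 (SE 0.094). Ppl, periplakin, fell by 0.51 (SE 0.064) without FGF and was at -0.445 (SE 0.064) with FGF. Pkp2, plakophilin-2, fell by 0.60 (SE 0.070) with FGF and was at -0.292 (SE 0.07) without FGF. Of 5 gap junction genes, Gjc1, connexin 45, was the 1 called in each setting and fell by 1.83 (SE 0.11) and 1.63 (SE 0.11). Without that library 1 gap junction gene was higher and 1 lower without FGF, and 1 higher and 2 lower with FGF. The connexin gene Gja1, named after its values were seen, was then called higher in both settings (0.119 and 0.215).

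Genes listed as linked to claudin-7 changed by smaller amounts than Cldn7 where they could be tested. Tspan8, named after its reads were seen, was too low to test. It had 15 reads in control and 0 in ETV4 knockout, and 5 and 0 with FGF. Of 7 tested genes, 5 were higher and 1 lower without FGF, where 22.5% and 23.3% of all genes were called. With FGF 5 were higher and 2 lower, beside 18% and 22.2%. Without ETV4 knockout replicate 2 the counts were 5 and 2 in both settings, beside 26.3% and 28.2%, and 28.1% and 30.5%. Epcam, which binds claudin-7 directly, was at 374 to 382 CPM in control and 263 to 312 in ETV4 knockout and fell by 0.43 (SE 0.075, adjusted p = 0.000499) without FGF and by 0.42 (SE 0.075, adjusted p = 0.000659) with FGF. Cd9, a tetraspanin, rose by 0.32 (SE 0.063) and 0.39 (SE 0.063). Spint1, an inhibitor of membrane serine proteases, rose by 0.34 (SE 0.084) without FGF and was at 0.243 (SE 0.084) with FGF. The hyaluronan receptor Cd44 rose by 0.89 (SE 0.14) with FGF and was at 0.391 (SE 0.134) without FGF.

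The nearest genes around Cldn7 on chromosome 11 differed less than Cldn7. The 20 nearest tested genes, 10 on each side within 0.4 Mb, had a median log2 difference of -0.05 without FGF, with a range from -1.78 to 0.53, and of -0.25 with FGF, with a range from -1.98 to 0.26. Among the 50 nearest, 25 on each side within 1.13 Mb, the medians were -0.245 and -0.309 and the lowest values -4.759 and -4.892. Elp5, an Elongator subunit whose model ends 0.3 kb from that of Cldn7 on the other strand, was at 0.03 (SE 0.12) and -0.20 (SE 0.12). Without ETV4 knockout replicate 2 Elp5 was at -0.136 (SE 0.081) and -0.196 (SE 0.072), the second called (edgeR adjusted p = 0.0226). Slc2a4, the glucose transporter GLUT4 at 16.6 kb on the other side, was at 0.48 (SE 0.26) and -0.29 (SE 0.25). Without that library the first was 0.235 (SE 0.243). Dlg4, a synaptic scaffold, had the lowest value of the 20, at -1.78 (SE 0.28) and -1.98 (SE 0.29), and was singled out after its values were seen. Around Cldn3 and Cldn4, whose neighbours are largely shared, the medians were 0.36 and 0.34 without FGF and 0.29 and 0.26 with FGF, so that Cldn4 lay on the side of its neighbours and Cldn3 did not.

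**Figure D4:**
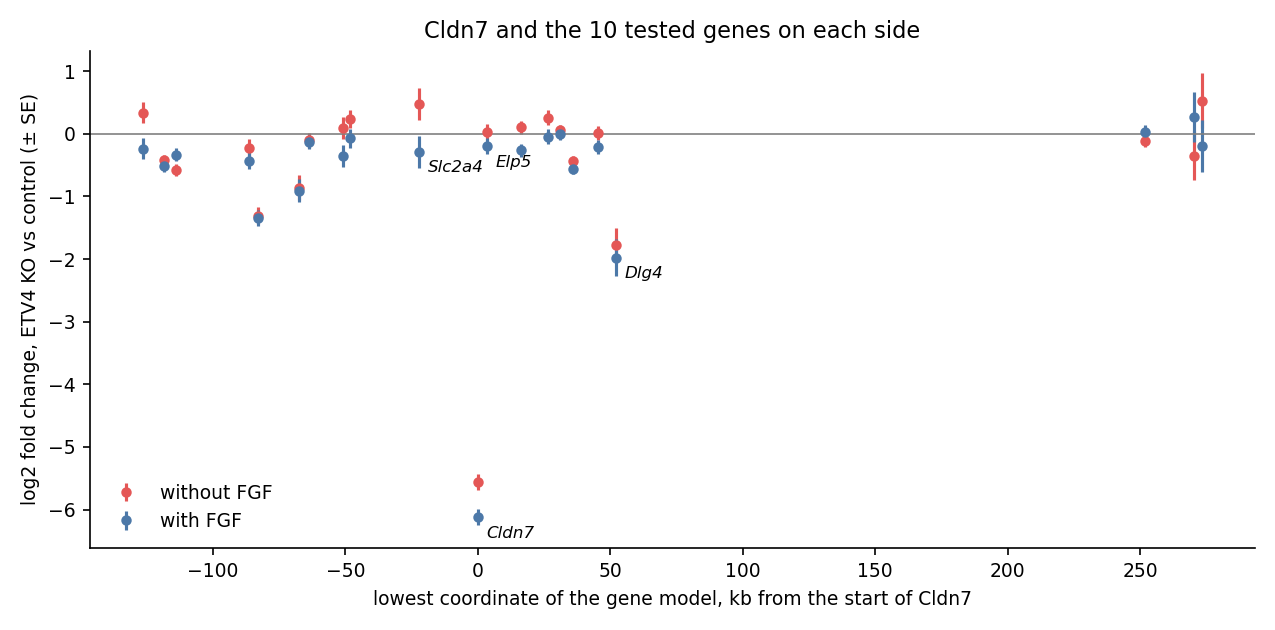
Log2 fold change of ETV4 knockout against control with its SE (y axis) for Cldn7 and the 10 tested genes on each side, by distance in kb from the start of Cldn7 (x axis), without FGF in red and with FGF in blue. The neighbours lie between -1.98 and 0.53, and Cldn7 lies at -5.55 and -6.12.

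The genes whose profile over the 12 libraries was most like that of Cldn7, by the root mean square difference of centred log2 CPM among 10477 genes, were not junction genes. They were Rps6ka6 (root mean square difference 0.379), a ribosomal S6 kinase, Cp (0.517), the copper protein ceruloplasmin, Tubb2b (0.527), a beta-tubulin, Rab25 (0.55), a GTPase of recycling endosomes, and Slc39a4 (0.658), a zinc importer. Of the members, Cldn3 ranked 657 in that order, Ocln 1346, Tjp1 2792, Cldn12 2812, Marveld2 5124, F11r 5229 and Cldn4 9736. The ranking follows the knockout difference and is a description.

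In control cells Cldn4 rose with FGF. The CPM of 338, 369.5 and 345 with FGF all lay above the 234, 232.5 and 242 without it, and the log2 change was 0.57 (SE 0.085, adjusted p = 0.00638). The call was lost without control replicate 1 (0.566, adjusted p = 0.0581) or control replicate 2 (0.562, adjusted p = 0.0539), with the size nearly the same. Cldn4 was the 1 member called of 8, where 0.488% of all genes tested were called, and the members' median was 0.07 against -0.001 over all genes. Cldn7 was higher with FGF in all 3 libraries than in any without it, with a log2 difference of 0.21 (SE 0.098) that did not pass (adjusted p = 0.842). The remaining 6 members had values from -0.11 (SE 0.14, Ocln) to 0.08 (SE 0.12, Cldn3), with adjusted p = 1.

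In knockout cells 0 of the 8 members were called for FGF by edgeR, where 2.42% of all genes were called. At an unadjusted edgeR p under 0.05 were 2 members, and 2377 of all 12079 genes. DESeq2 called 1 member, and its share of all genes is not given here. Cldn4 was at 379.6, 464 and 365 CPM without FGF and at 436, 456 and 433 with it, overlapping through ETV4 knockout replicate 2 (log2 0.13, SE 0.084, adjusted p = 0.382). Without that library the change was 0.247 (SE 0.051, adjusted p = 0.00289). Cldn12 was higher with FGF in every library (log2 0.32, SE 0.090, adjusted p = 0.0903), and was called without ETV4 knockout replicate 2 (0.219, adjusted p = 0.0421), without ETV4 knockout replicate 3 (0.41, adjusted p = 0.0291) and by DESeq2 (0.327, adjusted p = 0.0258). Cldn7 was lower with FGF in every library (log2 -0.35, SE 0.15, adjusted p = 0.219), a value of -0.216 (adjusted p = 0.53) without ETV4 knockout replicate 2. The others ran from -0.14 (SE 0.12, Cldn3) to 0.23 (SE 0.14, Ocln), with adjusted p = 0.367 or higher. Without that library Cldn3 was at 0.044, Ocln at 0.054 and Tjp1 at -0.053.

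Whether the FGF response differed between genotypes was tested with an interaction term. By edgeR 0 of the 8 members were called, where 0.0166% of all genes were called. An unadjusted edgeR p under 0.05 was reached by 2 members and by 1227 of all 12079 genes. DESeq2 called 0 members. For Cldn4 the term was a log2 of -0.44 (SE 0.12, edgeR adjusted p = 0.339), a smaller response in knockout than in control that was not called in the full fit. It was called without ETV4 knockout replicate 2 (-0.325, SE 0.068, adjusted p = 0.0156). For Cldn7 the term was -0.56 (SE 0.18, adjusted p = 0.431).

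None of the 28 other tested claudin and tight junction genes was called for FGF by edgeR, where 0.488% (control) and 2.42% (knockout) of all genes were called. At an unadjusted edgeR p under 0.05 were 4 in control and 8 in knockout, and 720 and 2377 of all 12079 genes. DESeq2 called 1 in control and 1 in knockout, and its share of all genes is not given here. Named here after their values were seen are the genes behind these small counts. Cldn23, a further claudin, was at 7.07 to 8.18 CPM in control and 10.4 to 11.2 in control with FGF (log2 0.51, SE 0.13, edgeR adjusted p = 0.175) and was the gene called by DESeq2. Without ETV4 knockout replicate 2 it was also called by edgeR (0.506, adjusted p = 0.0157), as were, in knockout, the scaffold gene Magi1, which was higher with FGF (0.241, adjusted p = 0.0153) and was also the DESeq2 call, and Prkci, the gene of an atypical protein kinase C of cell polarity, which was lower (-0.317, adjusted p = 0.00203). Among the genes of other contacts, Ppl fell with FGF by 0.34 (SE 0.064, adjusted p = 0.0335) in control and by 0.27 (SE 0.064, adjusted p = 0.044) in knockout, and Cd44 rose by 0.65 (SE 0.13, adjusted p = 0.0237) in knockout. When each library was left out in turn, the Ppl calls were lost in 9 and 11 of the 12 fits, and the Cd44 call in the 3 fits without a library of the knockout with FGF.

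**Figure D5:**
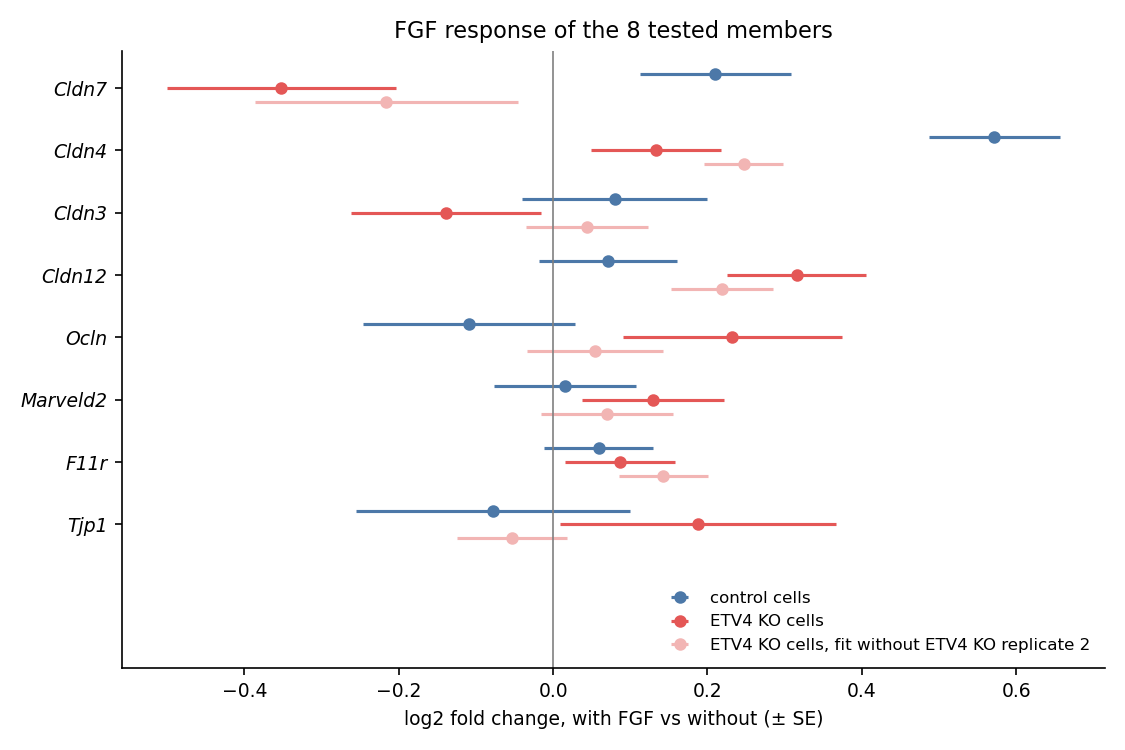
Log2 fold change with FGF against without (x axis, with SE) for the 8 tested members, in control cells (blue), in ETV4 knockout cells (red) and in knockout cells fitted without ETV4 knockout replicate 2 (pale red). Cldn4 in control lies at 0.57, its knockout value moves from 0.13 to 0.247 without that library, and the Cldn3 and Tjp1 values in knockout change sign.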

How the data were processed

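The data were read counts per gene symbol, made and deposited by the authors for 12 libraries of TruSeq Stranded mRNA; the submitters' processing notes name the builds mm10 and hg38 and the tools STAR 2.7.9a, featureCounts, FastQC 0.11.9 and R 4.1.1, and whether counting used strand is not given in the sources used here. Without strand, reads of a gene and an overlapping antisense partner cannot be told apart. Library totals were 18229429 to 23193244 counts.

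Counts were analysed with edgeR 4.0.16 in R 4.3.3: filterByExpr by group, TMM scaling, 1 mean per group over all 12 libraries and the quasi-likelihood F-test, with Benjamini-Hochberg adjustment over 12079 genes. The SE is the absolute log2 fold change divided by the square root of F. Gene coordinates and exon lengths are from GENCODE vM21 (mm10), matched by symbol for 30416 symbols; promoter windows are from RefSeq (GRCm38.p6), and all 9 members had one.

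The members and gene lists were chosen with earlier results of these data known. Named were all members, in each other list up to 4 called genes with the smallest adjusted p per comparison, and the 5 genes most like Cldn7 averaging at least 1 in log2 CPM; genes named outside this rule are said to be so or stand beside a library or marker check. Alternatives were upper-quartile and RLE scaling, limma-voom (limma 3.58.1), DESeq2 1.42.0, other filters on low counts, fits on the compared libraries alone, a replicate block, leaving out libraries, and other lengths for the levels per kb. Some results on genes of the lists are not reported here.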

Additional observations from a re-analysis of the deposited data

Results flagged for a closer look

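The FGF difference of Cldn7 had opposite signs in the 2 genotypes, but neither was called (edgeR adjusted p = 0.842 in control and 0.219 in knockout). All 3 control libraries with FGF lay above all 3 without it (log2 0.21, SE 0.098), and all 3 knockout libraries with FGF lay below all 3 without it (log2 -0.35, SE 0.15). The difference of the responses was log2 -0.56 (SE 0.18, edgeR adjusted p = 0.431; unadjusted p = 0.00768) and did not pass the test. Without ETV4 knockout replicate 2, the highest knockout library without FGF, it was -0.426, and the knockout response was -0.216 (edgeR adjusted p = 0.53). The knockout values rest on 54 to 79 Cldn7 reads per library. At the closest, the knockout groups were parted by 3.28 CPM without FGF against 3.18 with it.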

How the results depend on the processing

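Scaling by RLE or upper quartile moved the median log2 fold change of all genes by at most 0.051. The members called for the knockout with FGF numbered 3 in the full fit, 3 to 4 when 1 library was left out and 5 without both ETV4 knockout replicate 2 and control with FGF replicate 2. For FGF in control, 0 to 1 member and 0 to 1 of the other tight junction genes were called when 1 library was left out; Cldn23, 1 of the latter, was called by DESeq2, on the compared libraries alone, and without both libraries. For FGF in knockout, leaving out 1 library gave 0 to 2 members and 0 to 2 other genes; DESeq2 gave 1 and 1, RLE scaling and a filter of 1 CPM in 3 libraries gave 1 other gene (Magi1) each, and without both libraries 2 members and 6 other genes were called. For the interaction, 0 to 1 member was called when 1 library was left out and 1 (Cldn4) without both. The share of all genes called moved as well. Without ETV4 knockout replicate 2 it was 2.8% for FGF in control, 7.76% in knockout and 0.981% for the interaction. In the full fit these were 0.488%, 2.42% and 0.0166%. Shares for the other fits are not given here, and nothing about junction genes is read from these counts.

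Several small values changed sign. Leaving out 1 library gave a range from -0.151 to 0.01 for Tjp1 and from -0.035 to 0.057 for Marveld2 with FGF in control, from -0.248 to 0.044 for Cldn3 and from -0.053 to 0.329 for Tjp1 with FGF in knockout, and from -0.008 to 0.084 for F11r in the interaction. Without both libraries Tjp1 and Marveld2 were at 0.006 and -0.04 in control, Cldn3 and Tjp1 at 0.044 and -0.053 in knockout, and Tjp1 at -0.059 in the interaction. None of these was called. With the length of the longest transcript the Cldn7 share was 35.0% in control and 0.931% in ETV4 knockout, and the claudin sum in control was 386 CPM per kb; without scaling beyond the library total that sum was 346.

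Replicates of different groups share a number, but their deviations from the group means correlated between -0.087 and 0.343, which does not pair them. With the replicate number as a block, 6 members were called for the knockout without FGF, 3 with FGF, 1 for FGF in control, 0 for FGF in knockout and 0 for the interaction, and 19, 11, 0, 0 and 0 of the other tight junction genes. The share of all genes called with the block is not given here, and nothing is read from those counts. The cause of the changes between fits was not tested. Depth limits Cldn1 and Cldn2, which had too few reads for a test.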
